A study of Mus musculus with 4 samples.

Results

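Zbtb16, Sall1 and Ddit4 are 3 genes that the deposited comparison of Sox2 reporter cells from mouse testis lists as higher in cells without surface ckit. They were found by their names in that comparison, which gave 7 probe sets (5 for Zbtb16, 1 for Sall1 and 1 for Ddit4) out of 374 listed and 45101 on each array. The authors had put a gene on that list for being 2-fold or more apart on these arrays, so the direction and size of the 3 genes' differences are a description and were not tested. The groups were the Sox2GFP+ckit- population (ckit- cells below), which the labels call able to rebuild damaged tubules, and the Sox2GFP+ckit+ population (ckit+ cells), which they call unable to do so. Both came from 2-week-old Sox2GFP mice of strain 129SvJae/BL6, untreated as far as the labels say, by collagenase dissociation, antibody staining for ckit and sorting on reporter and ckit signal with dead cells excluded. Each population was measured on 2 arrays, each from a pool of 20 testes and 5 ng of total RNA, so a value is the mean of many animals and pooled bulk RNA cannot tell fewer cells of a type from less RNA per cell.

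PLZF, the protein of Zbtb16, is a BTB domain and zinc finger transcription factor that marks undifferentiated spermatogonia in the mouse and is needed to keep the germline stem cell pool. Sall1 encodes a zinc finger transcription factor of the SALL family. In mouse spermatogonial progenitors PLZF and the related factor SALL4 are known to oppose each other on chromatin, with Sall1 among the genes under their control. Ddit4 encodes REDD1, a stress-induced protein that holds back the growth-promoting kinase complex mTORC1 through the TSC1 and TSC2 proteins. In mouse progenitors PLZF is known to raise Ddit4 transcription and so to restrain mTORC1.

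The level of Kit, whose protein the sort used, served as a check on the labels. The brighter Kit probe set read 6.87 and 6.78 on the ckit- arrays and 9.68 and 9.62 on the ckit+ arrays (log2 expression values, in which 1 unit is a doubling). Its other listed probe set read 6.22 and 5.44 against 7.91 and 8.27. The ckit+ arrays were above the ckit- arrays in both. Both Kit probe sets came from the authors' list, so a clear gap between the populations followed in part from that choice. The arrays had nearly the same distribution, with medians of 6.39 to 6.42. The 3′ minus 5′ signal of the GAPDH control, a sign of RNA integrity, was 2.68 and 2.61 in ckit- and 2.45 and 2.59 in ckit+ arrays. That of the actin control was -0.11 and -0.19 in ckit- and 0.02 and -0.27 in ckit+ arrays, so the GAPDH and actin controls differed. The part of RNA integrity in the results was not tested.

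The promoters of Sall1 and Ddit4 are shown because PLZF is known to act on their transcription. All 3 genes came from the authors' list for this contrast, so their shared direction is no sign of joint control, which was not tested. No motif of PLZF itself was among those searched. RefSeq (build GRCm38.p6) gave 3 start sites for Sall1 and 1 for Ddit4, and the 250 bases before the first Sall1 start (chr8:89044163-89044412, minus strand) and before the Ddit4 start (chr10:59951771-59952020, minus strand) follow, read 5′ to 3′ on the gene's strand, with motif matches in capitals.
Sall1: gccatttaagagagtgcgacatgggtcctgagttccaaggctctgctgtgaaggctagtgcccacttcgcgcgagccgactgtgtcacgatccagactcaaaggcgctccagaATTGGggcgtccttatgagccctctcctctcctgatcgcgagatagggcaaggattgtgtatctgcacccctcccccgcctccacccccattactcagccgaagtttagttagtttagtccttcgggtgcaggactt
Ddit4: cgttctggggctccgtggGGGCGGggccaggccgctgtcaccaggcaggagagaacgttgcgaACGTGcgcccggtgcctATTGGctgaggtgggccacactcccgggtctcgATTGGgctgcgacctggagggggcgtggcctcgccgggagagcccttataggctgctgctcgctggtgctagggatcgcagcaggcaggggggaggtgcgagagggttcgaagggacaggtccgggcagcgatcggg
Both strands were searched for the E-box CANNTG, for TGACG from the cAMP response element, for GGGCGG, known as the GC box, for the CCAAT motif, for the promoter element TATAAA and for ACGTG, the core of a hypoxia response element. The Ddit4 window held GGGCGG at bases 232 to 227 before the start, ACGTG at 187 to 183, and CCAAT on the opposite strand at 170 to 166 and 137 to 133. Over all 32851 RefSeq promoter windows of this length, 32.7% held GGGCGG, 16.6% ACGTG and 33.9% CCAAT. The Sall1 window shown held 1 match, CCAAT on the opposite strand at 137 to 133. The windows of the other Sall1 starts, not printed, held other motifs: 4 GGGCGG and 1 TGACG before the second start and 1 GGGCGG before the third. TGACG was held by 17.8% of all windows. The capitals only mark letters, not binding sites. GC content was 56.4%, 74.4% and 78.4% in the windows of the 3 Sall1 starts and 70.0% in the Ddit4 window, against a median of 52.4% over all windows.

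Zbtb16 was higher in ckit- cells by each of its 5 listed probe sets, between 2.81-fold and 3.33-fold. The brightest, 1439163_at, read 12.35 and 12.25 on the ckit- arrays and 10.63 and 10.50 on the ckit+ arrays. The populations did not overlap: the lowest ckit- array stood 1.62 above the highest ckit+ array on the log2 scale, while arrays of 1 population differed by at most 0.13. The mean log2 difference (ckit- minus ckit+) was 1.73 ± 0.16 (standard error of a limma fit over all probe sets, n = 2 arrays per group), or 3.33-fold.

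The other 4 listed Zbtb16 probe sets gave the same picture at other brightness. Probe set 1442025_a_at read 11.03 and 10.93 in ckit- against 9.25 and 9.23 in ckit+ cells. Probe set 1442026_at, designed from the same sequence entry, read 10.33 and 10.33 against 8.82 and 8.85. The replicate arrays of these probe sets lay closer together than those of 1427638_at, which read 9.99 and 10.18 against 8.36 and 8.69. Probe set 1419874_x_at, of a class whose probes may also match other transcripts, read 9.53 and 9.58 against 7.77 and 7.97. In all 4 the ckit- arrays stood above the ckit+ arrays without overlap. Their log2 differences were 1.73 ± 0.16 for 1442025_a_at and 1.68 ± 0.17 for 1419874_x_at, with 1.57 ± 0.19 for 1427638_at and 1.49 ± 0.16 for 1442026_at (standard errors of the fit, n = 2). Over the 5 probe sets the differences had an SD of 0.11, less than the standard error of any of them. The probe sets read the same RNA on the same arrays, so they are not independent measurements of the populations. Any Zbtb16 probe set below 2-fold by the authors' values would be missing from the list. Part of the agreement of the 5 thus follows from the choice.

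**Figure D1:**
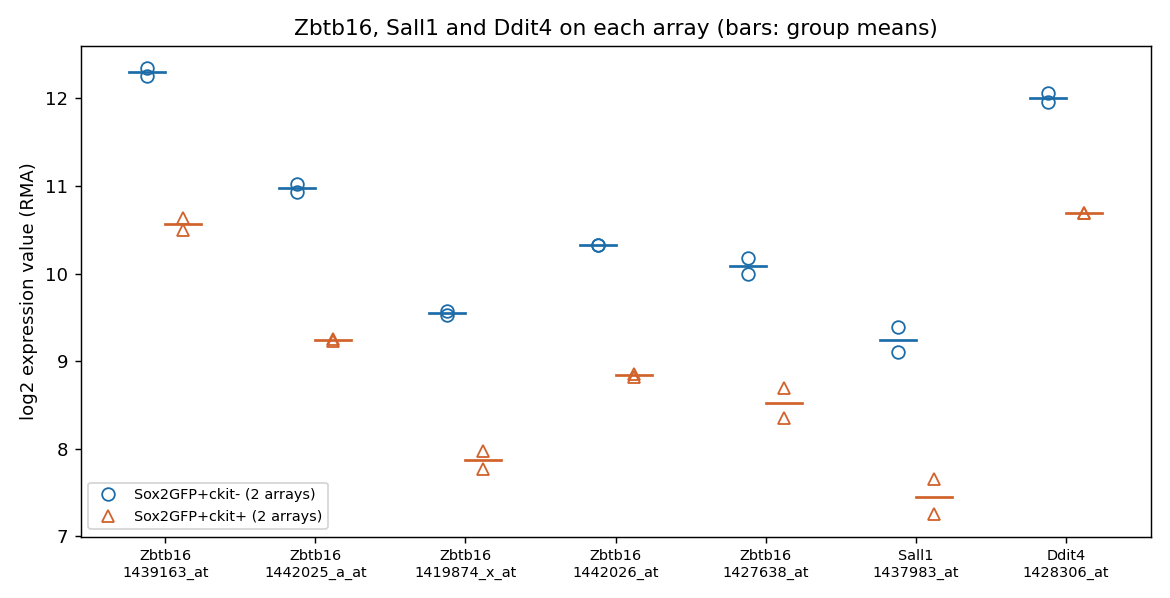
Log2 expression value (RMA) of each listed Zbtb16, Sall1 and Ddit4 probe set on the 4 arrays. Circles are ckit- arrays, triangles ckit+ arrays and bars group means, and in all 7 probe sets the circles lie above the triangles, by 1.26 or more on the log2 scale.

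Sall1 was higher in ckit- cells, and its replicate arrays lay farther apart than those of Zbtb16 and Ddit4. Its only listed probe set, 1437983_at, read 9.39 and 9.10 on the ckit- arrays and 7.65 and 7.25 on the ckit+ arrays. The populations did not overlap, yet the gaps between arrays of 1 population, 0.29 in ckit- and 0.40 in ckit+ cells, were the largest of the 7 probe sets. The group means were 9.24 ± 0.20 and 7.45 ± 0.28 (log2, SD, n = 2), a difference of 1.79 ± 0.21 (standard error of the fit) or 3.46-fold. From single arrays the fold ranged from 2.73 (lowest ckit- against highest ckit+) to 4.40 (highest ckit- against lowest ckit+). No other Sall1 probe set carries a name here, so this value has no second probe set to set it against.

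Ddit4 was higher in ckit- cells, and its replicate arrays lay close together. Its probe set, 1428306_at, read 12.06 and 11.96 on the ckit- arrays and 10.70 and 10.69 on the ckit+ arrays, above the highest upper quartile of the arrays (8.15) in both populations. The transcript was thus bright in both, with ckit- above ckit+ and no overlap. The group means were 12.01 ± 0.07 and 10.69 ± 0.00 (log2, SD, n = 2), a difference of 1.32 ± 0.16 (standard error of the fit) or 2.49-fold. From single arrays the fold ranged from 2.40 to 2.58.

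Across the arrays as a whole, a difference of this size was uncommon. Of 45037 non-control probe sets, 0.122% had a larger difference towards ckit- cells than Sall1, 0.147% a larger one than the brightest Zbtb16 probe set and 0.342% a larger one than Ddit4. The members' place follows from how they were chosen. All 7 probe sets were at least 2-fold higher in ckit- cells, as were 0.815% of all probe sets. In all 7 the populations did not overlap with ckit- above, which held for 24.2% of all probe sets. The authors' selection may have favoured this as well. Limma, a linear model that pools the spread over probe sets, called the 7 at an adjusted p under 0.05. It called 0.309% of all probe sets, 0.193% as higher in ckit- and 0.115% as higher in ckit+ cells, and because the authors' selection used this contrast nothing is read from that count. With any 1 of the 4 arrays left out, limma called 0 of all probe sets, while 4513 to 6422 had an unadjusted p under 0.05, so these calls needed all arrays. With 2 arrays a side, the smallest p that exact permutation can give is 0.333.

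**Figure D2:**
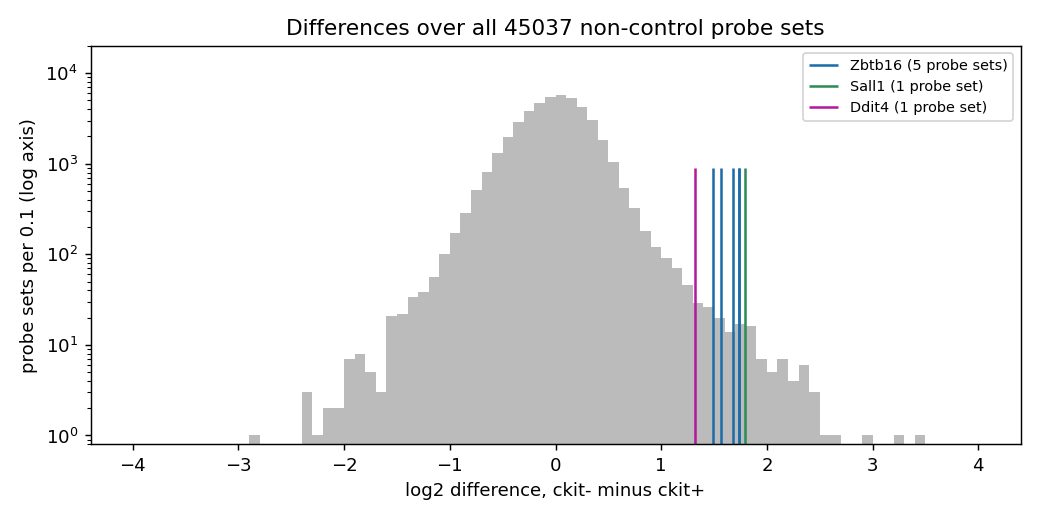
Number of probe sets (log axis) by log2 difference, ckit- minus ckit+, in steps of 0.1 over all 45037 non-control probe sets. Vertical lines mark the 7 probe sets of Zbtb16, Sall1 and Ddit4, which lie between 1.32 and 1.79, in the right tail of the distribution.

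The authors' deposited table gave other levels for the same probe sets but close differences. In the authors' deposited table Zbtb16 ranged from 2.67-fold to 3.33-fold over its 5 probe sets. Ddit4 was 2.51-fold higher in ckit- cells in the authors' deposited table, against 2.49-fold in the RMA values. Sall1 was 2.88-fold higher in the authors' deposited table, against 3.46-fold in the RMA values. Sall1 was the member whose log2 difference moved most between the authors' deposited table and the RMA values, by -0.27. For 1419874_x_at the ckit- mean was 10.64 in the authors' deposited table and 9.55 in the RMA values, while the log2 differences were 1.68 in each.

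**Figure D3:**
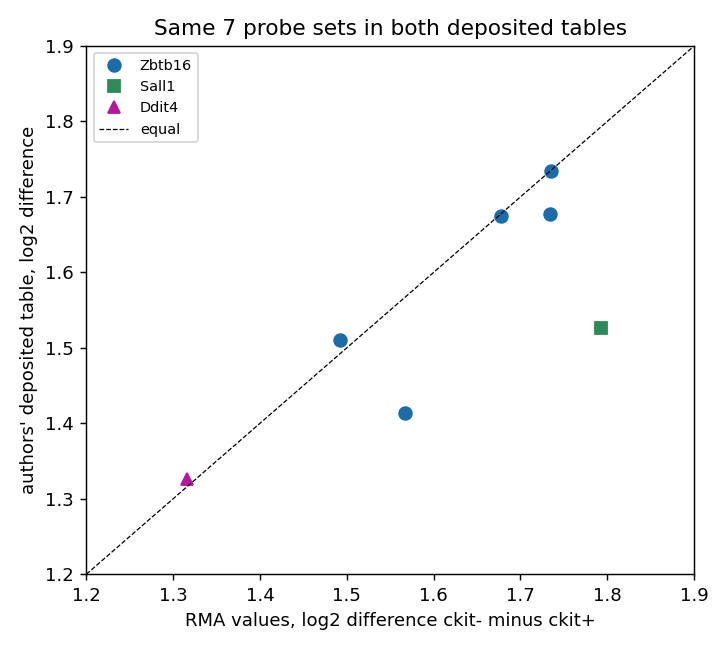
Log2 difference, ckit- minus ckit+, of the 7 probe sets from the RMA values (horizontal axis) and from the group means of the authors' deposited table (vertical axis), with a dashed line of equality. Ddit4 and 3 Zbtb16 probe sets lie within 0.02 of the line, and Sall1 lies farthest below it, by 0.27.

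Among the other genes of the mTORC1 pathway, Rragd and Rhebl1 were the only ones with a name in these data, 2 of 50 listed, and both had higher values in ckit- cells. Their median log2 difference was 1.26, against 0.89 over the 231 named genes, 118 of which had higher values in ckit- cells, and 0.00 over all 45037 probe sets. Both had been selected by the authors for a difference, so their presence and direction are not independent of the choice. Rragd encodes RagD, a GTPase that brings mTORC1 to the lysosome when amino acids are present. Its brighter probe set read 10.87 and 11.03 on the ckit- and 9.23 and 9.57 on the ckit+ arrays. The populations did not overlap, and the difference of 1.54 ± 0.19, or 2.91-fold, passed the threshold (limma's adjusted p = 0.047). A second Rragd probe set read 8.36 and 8.29 against 6.49 and 6.50, a 3.55-fold difference (log2 1.83 ± 0.16, limma's adjusted p = 0.027). Rhebl1 encodes a relative of RHEB, the GTPase that activates mTORC1. Rhebl1 read 7.30 and 6.84 against 6.27 and 5.91, without overlap, and its log2 difference of 0.98 ± 0.23 did not pass (limma's adjusted p = 0.15). With any 1 array left out, neither Rragd probe set passed (limma's adjusted p = 0.16 to 0.31). The TSC1 and TSC2 genes, Mtor, Rheb, the translation repressor Eif4ebp1, Rps6, Ddit4l, Sall2, Sall3 and Sall4 carried no name in the tables used here and were not analysed.

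Ddit4 is also known as a target of hypoxia, of the integrated stress response and of glucocorticoids. Of 20 other listed genes of hypoxia and the integrated stress response, 1 was named: Pdk1, a kinase that restrains pyruvate dehydrogenase. Pdk1 read 8.14 and 8.32 on the ckit- and 6.89 and 6.79 on the ckit+ arrays. The arrays did not overlap, and the log2 difference was 1.39 ± 0.17, or 2.62-fold higher in ckit- cells (limma's adjusted p = 0.045). Of 18 genes of the dissociation and stress response, 1 was named: Egr2, an immediate early transcription factor, which read 11.19 and 10.83 against 8.60 and 9.02 (log2 difference 2.20 ± 0.22, limma's adjusted p = 0.031). Egr2 is also in the list of undifferentiated spermatogonia used below, so its value belongs to both lists. The authors had selected both Pdk1 and Egr2 for a difference, so their presence and direction are not independent of that choice. The part of hypoxia or of a stress response in the Ddit4 difference was not tested. Of 10 other glucocorticoid response genes, 16 other SALL and NuRD genes and 17 other genes of PLZF's corepressors and relatives, 0 were named.

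Zbtb16 and Sall1 stood in a list of undifferentiated spermatogonia, of whose other 37 genes 12 were named. Each of the 12 read higher in ckit- cells (median log2 difference 1.86), and 8 passed limma's threshold, 0 in the other direction. Over all 231 named genes, 118 had higher values in ckit- and 113 in ckit+ cells, and 45 and 28 passed. The authors had selected each of the 12 for a difference, and the list was made with earlier results of these data known. Their presence and direction are thus not independent of the choice, and the listed genes without a name were not analysed. The 4 with the smallest p were Brachyury (T), Ret, Upp1 and Gfra1. Brachyury, a T-box transcription factor, read 5.97 and 5.94 on the ckit- and 3.86 and 3.76 on the ckit+ arrays. Its ckit+ values lay below the lower quartile of every array (4.93 to 5.04), where signal may not be separable from background, so no fold is given (limma's adjusted p = 0.027). Ret, the GDNF receptor kinase, read 9.09 and 8.92 against 6.71 and 6.82. The nucleoside enzyme gene Upp1 read 8.77 and 8.65 against 6.63 and 6.75. Gfra1, the GDNF co-receptor, read 9.09 and 9.24 against 6.82 and 7.15. In each of these the ckit- arrays were the higher ones, without overlap, and the log2 differences were 2.24 ± 0.17 for Ret, 2.02 ± 0.16 for Upp1 and 2.18 ± 0.19 for Gfra1 (limma's adjusted p = 0.027 for each).

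Of 18 genes listed for differentiating spermatogonia, 6 were named. Each of the 6 read higher in ckit+ cells (median log2 difference -1.40), and 3 passed limma's threshold (Kit, Stra8 and Crabp1). The sort on ckit fixed the direction of Kit, and without it 2 of 5 passed, with a median of -1.10. As above, the authors had selected every named gene for a difference, so its presence and direction are not independent of that choice. Stra8, which the entry into meiosis requires, read 11.33 and 11.41 on the ckit- and 12.999 and 13.13 on the ckit+ arrays (limma's adjusted p = 0.028). The retinoic acid-binding protein gene Crabp1 read 10.07 and 9.75 against 11.76 and 11.57 (limma's adjusted p = 0.037). Dnmt3b, a DNA methyltransferase, read 7.92 and 7.94 against 9.13 and 8.93, short of the threshold (limma's adjusted p = 0.069). Their order was the opposite of that of Zbtb16, Sall1 and Ddit4: each ckit+ array stood above each ckit- array. For markers of other testis cells, 2 of 12 endothelial genes were named. Plvap, a protein of capillary diaphragms, read 6.77 and 6.91 in ckit- against 5.40 and 5.39 in ckit+ cells. Fgd5, an exchange factor known from endothelium, read 8.97 and 8.56 against 6.44 and 6.47. Both were thus higher in the same cells as Zbtb16, Sall1 and Ddit4 (limma's adjusted p = 0.040 and 0.027), and their part in those differences was not tested. Of 12 genes of peritubular myoid and stromal cells, 1 was named: Tagln, a smooth muscle actin-binding protein, read 6.81 and 6.89 against 5.97 and 6.001, short of the threshold (limma's adjusted p = 0.10). For Sertoli cells, Leydig cells, macrophages and leukocytes, and mast cells 0 genes were named, which says nothing of their levels.

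**Figure D4:**
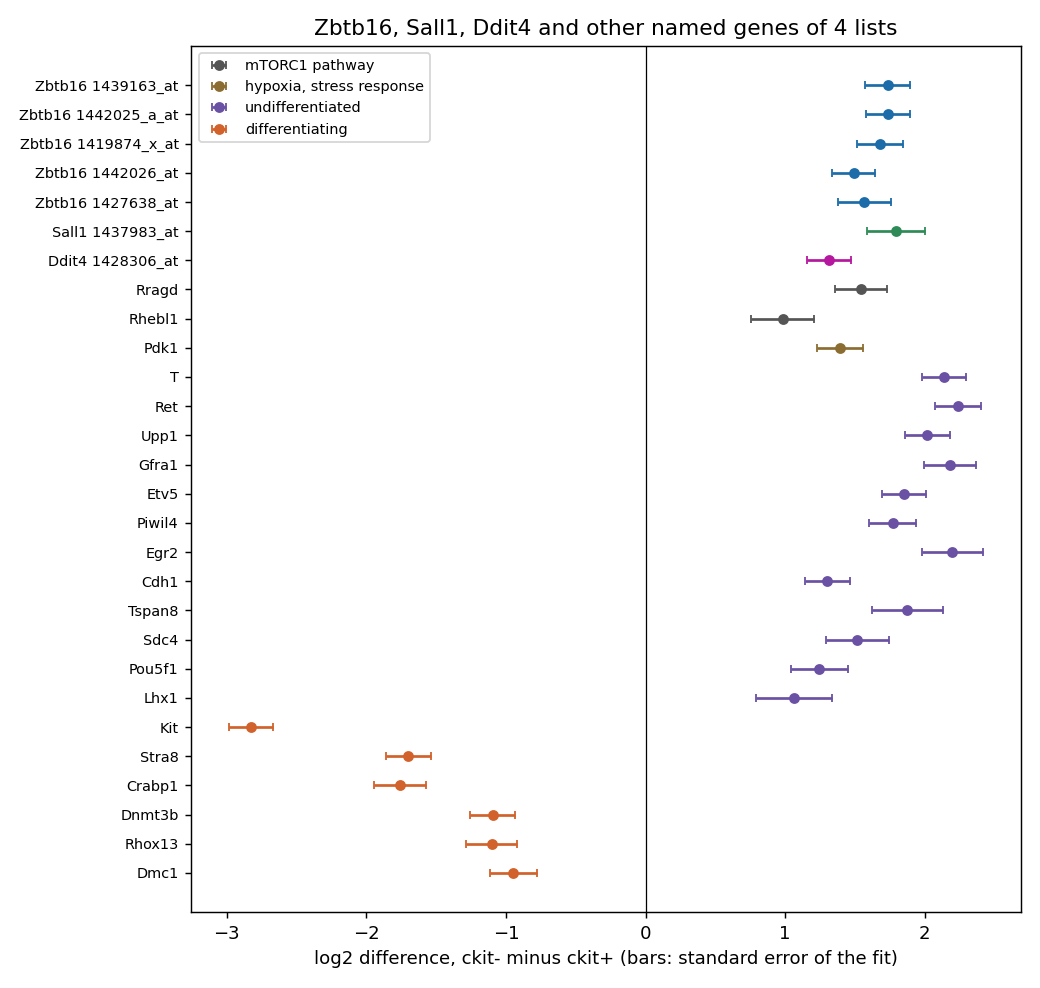
Log2 difference, ckit- minus ckit+, with the standard error of the fit (bars), for the 7 probe sets of Zbtb16, Sall1 and Ddit4 and the brightest probe set of each other named gene of 4 lists. The mTORC1 pathway, stress response and undifferentiated genes lie right of 0, and the 6 differentiating genes lie left of it, between -2.83 and -0.95.

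The genes most like each member were taken over the 4 arrays from the named genes, by the root-mean-square difference (in log2 units) after each probe set was centred on its own mean. For Zbtb16 these were Osbpl3, an oxysterol-binding protein (0.083), the Mediator subunit gene Med14 (0.099), Etv5, an ETS transcription factor induced by GDNF (0.109), the zinc finger gene Bnc2 (0.110) and the chemokine gene Cxcl12 (0.110). For Sall1 the most alike was Zbtb16 (0.121), followed by Onecut2 (0.122), F2rl1 (0.134), Osbpl3 (0.149) and Cxcl12 (0.161). Onecut2 (lowest array 2.93), F2rl1 (4.47) and Cxcl12 (4.89) fell below the lower quartile of the arrays on at least 1 array, where signal may not be separable from background, so their distances and places in the order are uncertain. For Ddit4 they were Cdh1, the gene of E-cadherin (0.026), the laminin chain gene Lamb1 (0.036), Angptl1 (0.037), Aplp1 (0.038) and Krt24 (0.049). Zbtb16 and Ddit4 were 0.214 apart and Sall1 and Ddit4 0.284. Probe sets of Zbtb16 itself were 0.040 to 0.210 apart, so the neighbours were no farther from a member than some Zbtb16 probe sets from each other. All values share the same 4 arrays, and the measure mostly ranks genes by how near their difference between the populations is.

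**Figure D5:**
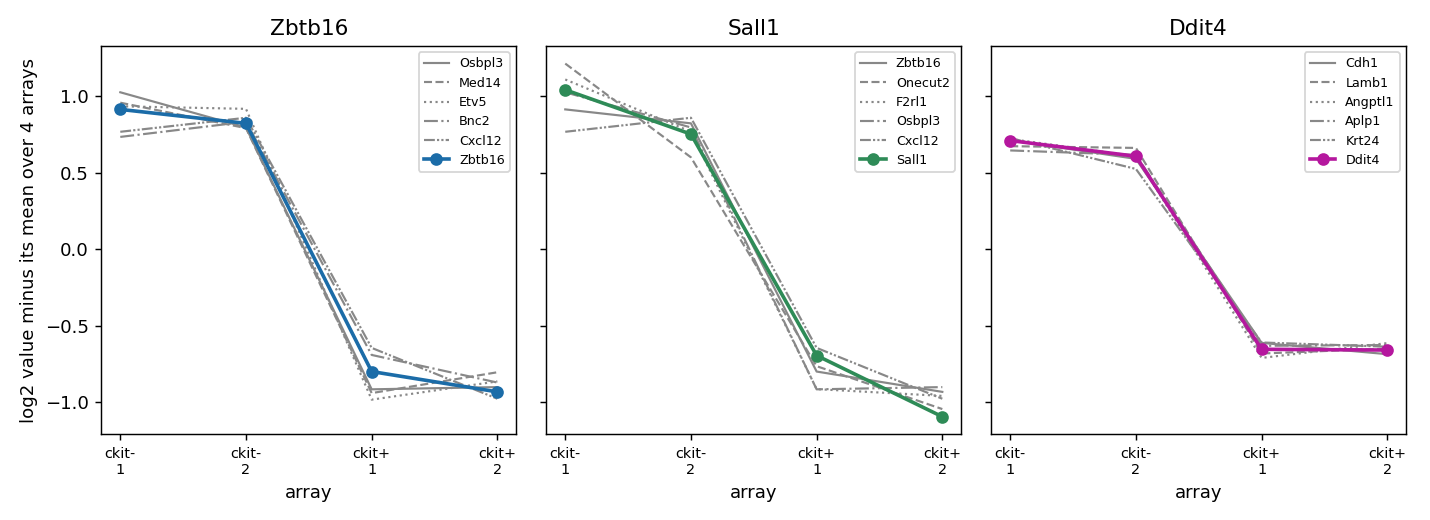
Log2 value minus its mean over the 4 arrays, by array, for the brightest probe set of Zbtb16, Sall1 and Ddit4 (coloured) and the 5 most similar named genes of each (grey). All lines are high in the ckit- and low in the ckit+ arrays, and the Ddit4 group is the tightest, with differences of 0.026 to 0.049.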

How the data were processed

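RNA of 2 sorted populations was measured on 4 one-colour arrays, 2 per population. Per the submitters' processing notes the deposited log2 values were made by the authors with RMA, whose version, like the array model, is not given in the sources used here. Per the file headers, the authors' deposited table holds group means and standard errors on a log2 scale, a ratio (linear fold) and p-values from t-tests (605 of them, Benjamini-Hochberg adjusted), and its normalization is not given in the sources used here. RMA equalizes the arrays, so a shift of all transcripts would not show.

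Differences (ckit- minus ckit+) were fitted in R (version 4.3.3) by lmFit and eBayes of limma (version 3.58.1), with two-sided p-values adjusted by Benjamini-Hochberg over 45037 probe sets and a threshold of 0.05, without 64 control probe sets, a filter or covariates. The script was tested on simulated data. The number of arrays limits the precision, and p-values measure the spread between pools. Names came from the authors' deposited table: 267 of 374 probe sets (231 genes) were named by matches to RefSeq (GRCm38.p6). The matches were through accessions, symbols, full names or a protein accession in the description. The last of these named 3 probe sets, all of Zbtb16, described there as strongly similar to its protein. A gene is represented by its probe set with the highest mean. Genes in the report were named by a rule. It took the 3 genes and Kit with every probe set on the authors' list. From each of 15 lists it took up to 4 members with the smallest p, and it added the 5 genes most like each of the 3. Genes in the closing observations were chosen after their values were seen. Members and lists were chosen with earlier results of these data known.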

Additional observations from a re-analysis of the deposited data

How the results depend on the processing

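The count of 139 calls by limma became 554 under a replicate block and 419 when the prior followed intensity, both holding all 139. A t-test on the RMA values over all probe sets called 1 (5346 at an unadjusted p under 0.05). That 1 was none of the 139. This t-test called 0 of the 7 member probe sets, and both Rragd probe sets lost their call (the t-test's adjusted p = 0.37 and 0.34). The authors' own t-tests were adjusted over far fewer tests and stand beside other group means. The calls given here are therefore not those of the authors. Leaving out 1 array gave 0 to 0 calls. Quantile normalization, median centring and a filter on dim probe sets gave 133, 142 and 99. The deviations of arrays that share a number correlated at 0.26 across probe sets, but 2 pairs and labels without a shared source make the block no more than an alternative; it left the members' log2 differences unchanged, since the design is balanced, and brought Rhebl1 past the threshold (limma's adjusted p = 0.047). No alternative turned the direction of Zbtb16, Sall1, Ddit4, Rragd or Rhebl1, but most could not have done so. Their arrays do not overlap, so leaving out 1 array cannot turn the sign. The block, the intensity prior and the t-test leave the difference unchanged. Zbtb16 had a log2 difference of 1.64 as the mean of its 5 probe sets and 1.67 to 1.80 with 1 array left out. Sall1 had 1.53 in the authors' deposited table and 1.59 to 1.99 with 1 array left out. Ddit4 had 1.38 after renewed quantile normalization and 1.26 to 1.37 with 1 array left out. By uncentred values, 1 of the 5 genes most like Zbtb16 and 0 of those most like Sall1 and Ddit4 were the same. The lone array left after such an omission is assumed to vary like the other population. The cause of these shifts was not tested.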

Other observations

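The genes here fall outside the naming rule: they were chosen after their values were seen, and the authors had selected each for a difference. Grb10, an adaptor that binds the insulin receptor and is known as an mTORC1 substrate, had higher values in ckit+ cells, opposite to Ddit4. Its 3 listed probe sets had log2 differences (ckit- minus ckit+) of -1.87 ± 0.16, -1.52 ± 0.23 and -1.48 ± 0.16 (standard error of the fit, n = 2). Limma's adjusted p was 0.027, 0.068 and 0.037. The brightest of them, which represents the gene and is the one that did not pass, read 9.70 and 9.12 on the ckit- and 10.97 and 10.88 on the ckit+ arrays. Phlpp1, a phosphatase that removes an activating phosphate from AKT, read 7.46 and 7.37 against 8.84 and 8.68, also higher in ckit+ cells (limma's adjusted p = 0.047). Pik3r6, a regulatory subunit of PI3K gamma, read 7.96 and 8.10 against 6.52 and 6.69 and was higher in ckit- cells (limma's adjusted p = 0.043). Irs4, an insulin receptor substrate, read 5.73 and 5.71 against 4.41 and 4.82, short of the threshold (limma's adjusted p = 0.097). Rps6ka6, a ribosomal S6 kinase of the RSK family, read 7.43 and 7.07 against 8.64 and 8.41, short of the threshold (limma's adjusted p = 0.073).

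Fbxo32, an F-box gene known from muscle atrophy, was higher in ckit- cells by both its listed probe sets. The differences were 3.10-fold (log2 difference 1.63 ± 0.19) and 3.49-fold (1.80 ± 0.19), with limma's adjusted p = 0.044 and 0.037.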
